A study of Mus musculus with 6 samples.

Results

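The genes described here are those of the ADAM, ADAMTS, MMP and TIMP families: metalloproteases that cut cell-surface and matrix proteins, and the inhibitors of these enzymes. They were taken by name, as every row of the deposited gene count table whose symbol starts with Adam, Adamts, Mmp or Timp followed by a digit. This gave 74 of 30438 rows, of which 27 were ADAM, 19 ADAMTS, 24 MMP and 4 TIMP symbols. A member was called expressed with 10 or more counts in at least 3 of the 6 libraries, which held for 39 members: 15 ADAM, 13 ADAMTS, 9 MMP and 2 TIMP genes. Of the other 35, 20 had 0 counts in every library and 15 had between 1 and 60 counts in all 6 together. Closest to the limit were Adamts13, inside it with 14, 13 and 9 counts in the libraries labelled Nrf2 KO and 24, 9 and 10 in the controls, and Mmp15, outside it with 8, 15 and 19 against 5, 7 and 6. The rows Mmp17 and Mmp17-2 held identical counts and are 1 measurement.

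The members share a zinc-dependent catalytic fold or inhibit enzymes that have it. ADAM proteins sit in the cell membrane and release the outer part of growth factors, receptors and adhesion proteins, a process called shedding. ADAMTS proteins are secreted and carry thrombospondin repeats, and they trim proteoglycans and procollagens. MMPs degrade collagens, gelatin and other matrix proteins, some of them anchored to the cell surface. TIMPs bind the catalytic site and block it. Notch signalling, which patterns the organ of Corti, depends on shedding by ADAM enzymes.

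The libraries are poly(A)-selected RNA of HEI-OC1, a conditionally immortalised line made from the mouse organ of Corti and described in the labels as a cochlear stem cell. HEI-OC1 cells labelled as Nrf2 knockout gave 3 libraries and wild-type HEI-OC1 gave 3 as control. Culture was at 33 °C under 10% CO2, with 10% fetal bovine serum and no drug named in the labels. How Nrf2 was edited, at which position, and in how many clones the sources used here do not state. Nfe2l2, the gene of Nrf2, had a higher transcript level in the libraries labelled Nrf2 KO, at 396, 236 and 205 CPM (counts scaled by library size and between libraries) against 74.2, 126 and 96.7 CPM in the controls. Its log2 fold change was 1.49 (SE 0.33, adjusted p = 0.0456, and up to 0.202 with 1 library left out). The transcript was thus not reduced, and with the edit not described its level can neither bear out nor refute the label. Each direction below compares libraries labelled Nrf2 KO with controls.

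Library totals ran from 29130007 to 51285343 counts. Libraries numbered 1 stood apart in both groups: Pearson's r of log2 CPM across genes was 0.995 between Nrf2 KO replicates 2 and 3, and 0.931 and 0.939 between replicate 1 and these. Results are therefore also given with the number as a block and without Nrf2 KO replicate 1. Of 9 hair cell markers in the table only Myo7a was expressed, while Atoh1 and Slc26a5 had 0 counts in all 6 libraries, and 8 of 9 fibroblast and mesenchyme markers were expressed.

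The members were also grouped by the coding bases of the catalytic site. In GENCODE M21 (mouse, GRCm38) 68 members had a coding sequence, and a script searched each for the zinc-binding motif of this class of enzymes, 11 codons with histidine at codons 1, 5 and 11, glutamate at codon 2, and glycine or asparagine at codon 8. Those 5 codons are in capitals in the sites below, which are 33 bases long. They are shown for members that passed the test described below, and for Adamts4, which did not pass. Adamts7 and Adamts17 passed and have a site with the glycine codon, but are not shown. The first 4 sites shown carry the asparagine codon, found in 5 members in all, all ADAMTS.

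Adamts9: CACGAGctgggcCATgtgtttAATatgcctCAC
Adamts20: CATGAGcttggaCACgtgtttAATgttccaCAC
Adamts1: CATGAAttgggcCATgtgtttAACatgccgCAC
Adamts4: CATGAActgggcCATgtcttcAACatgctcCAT
Adamts12: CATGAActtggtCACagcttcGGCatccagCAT
Adamts6: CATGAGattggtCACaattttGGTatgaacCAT
Adamts2: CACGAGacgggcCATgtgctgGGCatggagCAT
Adam12: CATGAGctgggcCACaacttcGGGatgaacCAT
Adam17: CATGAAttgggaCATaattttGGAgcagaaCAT
Mmp9: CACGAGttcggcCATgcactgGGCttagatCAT
Mmp11: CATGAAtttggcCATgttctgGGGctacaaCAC

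Of the 33 bases of the Adamts9 site, 28 were identical in Adamts1, 26 in Adamts20 and 25 in Adamts4. In the ADAMTS shown with the glycine codon, 22 were identical in Adamts2, 19 in Adamts6 and 17 in Adamts12. The Adamts9 site lies on the minus strand at chr6:92905285-92908493 and the Adamts20 site on the minus strand at chr15:94353678-94355296. In all 7 ADAMTS genes shown an intron splits the site. In Adam12 (chr7:133961158-133961190, minus strand), Adam17 (chr12:21336732-21336764, minus strand), Mmp9 (chr2:164951133-164951165, plus strand) and Mmp11 (chr10:75926931-75926963, minus strand) it lies within 1 coding exon. No match was found in 6 tested ADAM genes: Adam1a, Adam4, Adam11, Adam22, Adam23 and Adam32.

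The libraries labelled Nrf2 KO were compared with the controls by edgeR's quasi-likelihood test, Benjamini-Hochberg adjusted over all 14618 genes tested, with a threshold of 0.05. Of 40 members with enough counts to test (the 39 expressed and Mmp15), 9 rose and 4 fell in the libraries labelled Nrf2 KO. That is 32.5% of the members tested, beside 8.28% of all genes tested. Higher calls were 4.83% and lower calls 3.45% of all genes. Those higher were Adamts9, Adamts20, Adam12, Adamts12, Mmp9, Adamts1, Adamts6, Adamts7 and Adam17, and those lower were Adamts2, Adamts17, Adam11 and Mmp11. The median log2 fold change was 0.28 over members and 0.04 over all genes, and without Nrf2 KO replicate 1 it was 0.45 over members and -0.02 over all genes. Adamts9 and Adam33 counted as expressed only through the libraries labelled Nrf2 KO, and Adamts17 only through the controls. In bulk RNA, fewer cells of a kind and less RNA per cell cannot be told apart.

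**Figure D1:**
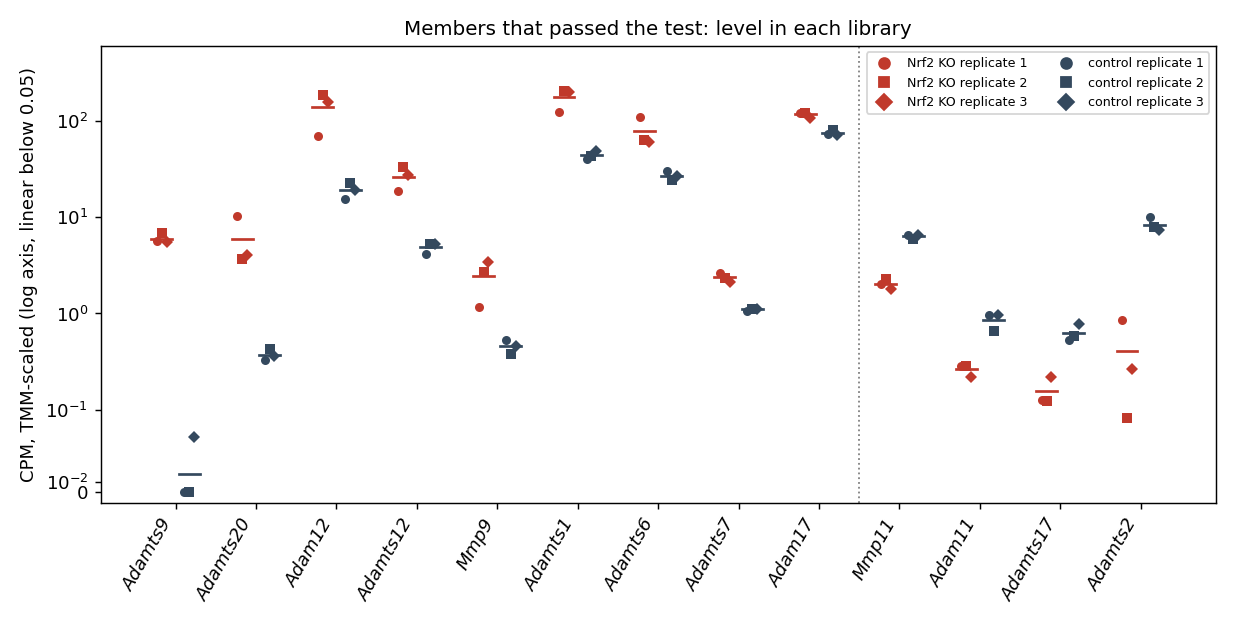
Level in CPM (log axis, linear below 0.05) of the 13 members that passed the test, in each of 3 Nrf2 KO libraries (red) and 3 control libraries (dark), with bars at the group means and shapes for the replicate number. The dotted line divides the 9 higher from the 4 lower members. In none of the 13 do the groups overlap, as in 34.2% of all genes. The 13 were picked by the test on these same libraries, so this is no separate support.

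The groups did not overlap in 22 of 40 members (55.0%), beside 34.2% of all genes. Nrf2 KO lay above in 15 members (37.5%) and below in 7 (17.5%), beside 17.1% of all genes in each direction. The calls depended on the libraries. With the replicate number as a block 13 members were higher and 6 lower, beside 18.3% of all genes called (10.4% higher and 7.92% lower). Dropping Nrf2 KO replicate 1 gave 16 and 7 members, beside 30.2% of all genes (15.6% higher and 14.5% lower). All 13 calls made with 6 libraries were also made in both of these fits. Without control replicate 1, 2 or 3 only Adamts9 and Adamts12 passed, without Nrf2 KO replicate 2 there were 7 calls and without Nrf2 KO replicate 3 there were 5. So Adamts9 and Adamts12 are the members whose calls held whichever of the 6 libraries was dropped. Of these, Adamts9 met the count limit only through the libraries labelled Nrf2 KO.

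**Figure D2:**
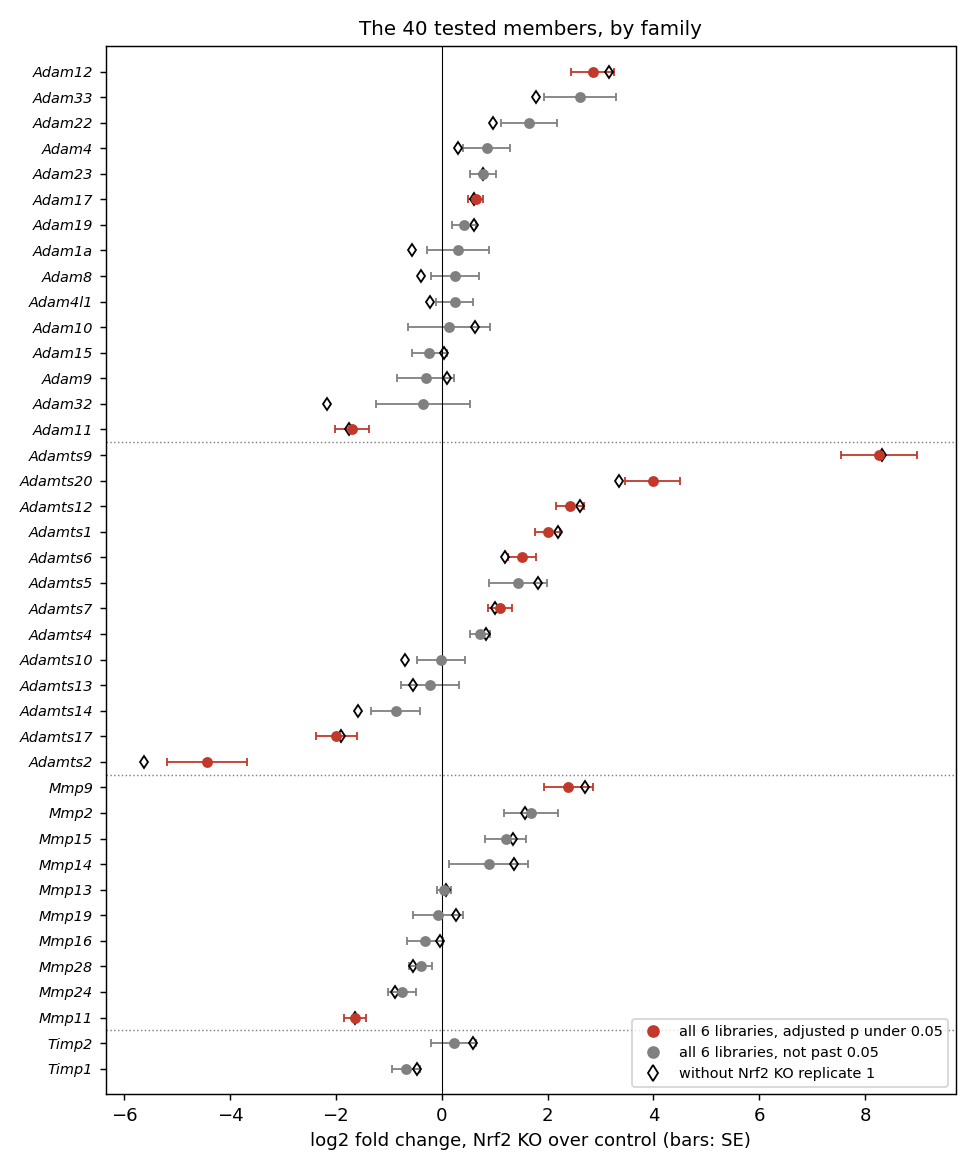
Log2 fold change, Nrf2 KO over control, of the 40 tested members by family, with bars for the standard error and red for an adjusted p under 0.05. Open diamonds give the value without Nrf2 KO replicate 1: the 13 red members keep their side of 0, while Adam1a, Adam8, Adam4l1, Adam9, Adam15 and Mmp19 cross it.

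ADAMTS genes held most of the calls, with 6 of 13 tested members higher and 2 lower (61.5%, beside 8.28% of all genes called). Among those that cleave the large hyaluronan-binding proteoglycans, such as aggrecan and versican, 3 of 5 tested rose with all 6 libraries. All 5 did with the replicate block, and again when Nrf2 KO replicate 1 was dropped. These 2 fits called 10.4% and 15.6% of all genes higher. Their summed level was 156, 248 and 239 CPM in libraries labelled Nrf2 KO, against 51.8, 58.6 and 62.1 CPM in the controls. Most of this sum was Adamts1 alone, at 124, 205 and 200.1 CPM against 40.2, 43.5 and 48.3 CPM.

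Adamts9, a relative of a nematode protease that guides gonad cell migration, was close to silent in the controls. It had 176, 334 and 226 counts in the libraries labelled Nrf2 KO and 0, 0 and 2 in the controls. The ratio of the summed counts, 736 against 2 and corrected for library totals, was 362, with an exact 95% interval of 99.9 to 2996 that covers counting error only. Its adjusted p was 0.00330 and stayed at or below 0.0274 in 15 alternatives. Adamts9 met the count limit only through the libraries labelled Nrf2 KO, where it was high. The interval and these p-values are therefore no separate support for the difference.

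Adamts20, which acts in pigment cell development in mice, is the closest relative of Adamts9. It was at 10.3, 3.65 and 4.03 CPM in libraries labelled Nrf2 KO and at 0.332, 0.427 and 0.361 CPM in the controls (log2 fold change 3.99, SE 0.52, adjusted p = 0.00923). The groups did not overlap, and Nrf2 KO replicate 1 was the highest library. Without it the log2 fold change was 3.34, and without any 1 control library the call was lost (adjusted p up to 0.0714).

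Adamts1, a versican and aggrecan protease, had the highest level per length of the ADAMTS genes in the Nrf2 KO group. It was at 124, 205 and 200.1 CPM in libraries labelled Nrf2 KO, against 40.2, 43.5 and 48.3 CPM in the controls (log2 fold change 2.00, SE 0.24, adjusted p = 0.00727). All 3 Nrf2 KO libraries lay above all controls, and the call was lost without any 1 control library, with an adjusted p of at most 0.0572. Adamts5, its neighbour in the mouse genome and the main aggrecanase of mouse cartilage, was at 4.34, 15.8 and 14.2 CPM against 2.63, 5.89 and 4.18 CPM. There the groups overlapped through Nrf2 KO replicate 1 alone (log2 fold change 1.44, SE 0.54, adjusted p = 0.169; with the replicate block 1.33, adjusted p = 0.0278, in a range of 0.000383 to 0.425 over 15 alternatives).

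Adamts4, the other well-known aggrecanase, was at 12.2, 16.1 and 15.5 CPM in libraries labelled Nrf2 KO and at 8.60, 8.73 and 9.18 CPM in the controls. The groups did not overlap, but the test was not passed (log2 fold change 0.72, SE 0.18, adjusted p = 0.0614; 0.0348 with the block, in a range of 0.00103 to 0.259). Adamts15, of the same subgroup, had 7 counts in all 6 libraries and Adamts8 had 0. The substrate list was small: of its 4 proteoglycans only Vcan, the gene of versican, had enough counts, at 1085 ± 246 CPM against 618 ± 61.1 CPM (SD, n = 3 each), with an adjusted p of 0.0868, and 0.0347 with the block (range 0.000628 to 0.334).

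The 4 tested members with the asparagine codon (Adamts1, Adamts4, Adamts9 and Adamts20) are among the 5 tested proteoglycan-cleaving ADAMTS above. Grouping by the catalytic site therefore gives no separate result for them. Each had Nrf2 KO libraries above all controls, as had 17.1% of all genes, and 3 of the 4 passed. Adamts9 counted as expressed only through the libraries labelled Nrf2 KO. Of the 9 tested ADAMTS with the glycine codon, 3 rose, 2 fell and 4 did not pass. Among ADAM genes, 2 of 8 with the glycine codon rose, and of the 6 without a match 1 fell. Over all genes tested 8.28% were called. These counts describe 4 to 9 genes a class that share ancestry, and the difference between the classes was not tested.

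**Figure D3:**
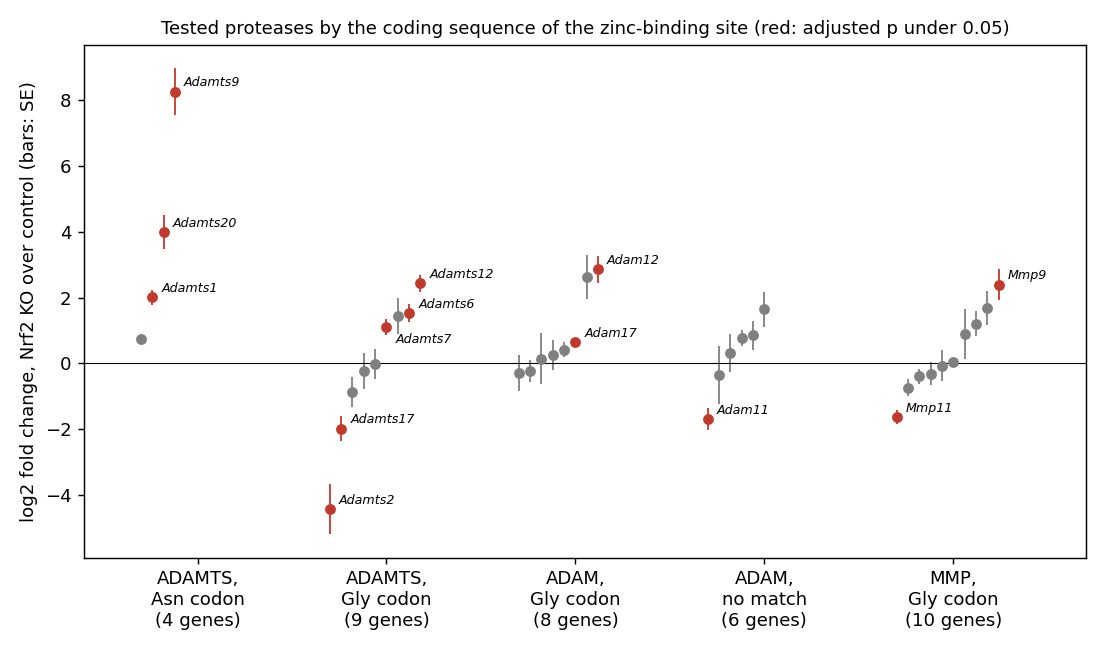
Log2 fold change, Nrf2 KO over control, with its standard error, of 37 tested proteases grouped by family and by the codon at position 8 of the zinc-binding site (or no match), red where the adjusted p is under 0.05. The 4 ADAMTS with the asparagine codon all lie above 0, and the 9 with the glycine codon lie on both sides.

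The relatives Adamts7 and Adamts12, which cleave cartilage oligomeric matrix protein, both rose. Adamts12 was at 18.9, 33.0 and 27.4 CPM in libraries labelled Nrf2 KO and 4.19, 5.31 and 5.26 CPM in the controls (log2 fold change 2.43, SE 0.26, adjusted p = 0.00529). It passed in each of 15 alternatives, with adjusted p up to 0.0495. Adamts7 was at 2.65, 2.32 and 2.14 CPM against 1.07, 1.12 and 1.11 CPM (1.10, SE 0.24, adjusted p = 0.0393). The Adamts7 call was lost with upper-quartile scaling, with library size alone, with no filter on low counts, and without any 1 library other than Nrf2 KO replicate 1 (adjusted p up to 0.213).

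Of the procollagen N-proteinases, which remove the amino-terminal propeptide of fibrillar collagens, 1 of 2 tested fell and none rose. Over all genes 8.28% were called. Adamts2, the main enzyme for type I procollagen, was at 0.862, 0.0815 and 0.267 CPM in libraries labelled Nrf2 KO (27, 4 and 11 counts), against 9.93, 7.83 and 7.32 CPM (389, 348 and 284 counts) in the controls. This was the steepest fall of any member (log2 fold change -4.43, SE 0.76, adjusted p = 0.0217). Without Nrf2 KO replicate 1, the highest library of its group, it was -5.62. Without Nrf2 KO replicate 3 or any 1 control the Adamts2 call was lost (adjusted p up to 0.0960). Adamts14 was at 43.8, 15.2 and 14.7 CPM against 55.7, 39.9 and 39.0 CPM, with overlap through replicate 1 (log2 fold change -0.87, SE 0.47, adjusted p = 0.318). With the block Adamts14 passed at an adjusted p of 0.0499, in a range of 3.22e-05 to 0.577 over 15 alternatives. The third enzyme of this kind, Adamts3, had 0 counts in all 6 libraries. Over the same libraries the substrate genes Col1a1 and Col1a2 rose, with log2 fold changes of 1.33 (SE 0.25, adjusted p = 0.0256) and 3.27 (SE 0.27, adjusted p = 0.00261), of which the Col1a1 call was lost without any 1 library other than Nrf2 KO replicate 1 (adjusted p up to 0.153).

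For Adamts2 the RefSeq promoter table (GRCm38.p6) holds a start site, and 250 bases upstream of it are shown because the study concerns Nrf2, which binds the antioxidant response element. The capitals mark the only match to its core letters TGACNNNGC, on the reverse strand, in the window chr11:50601835-50602084 on the plus strand.

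Adamts2: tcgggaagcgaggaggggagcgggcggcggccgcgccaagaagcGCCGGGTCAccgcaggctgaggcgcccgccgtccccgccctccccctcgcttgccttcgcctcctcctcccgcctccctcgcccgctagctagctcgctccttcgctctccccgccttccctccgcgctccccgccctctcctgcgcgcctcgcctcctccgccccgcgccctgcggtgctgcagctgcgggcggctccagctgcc

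On either strand these letters occur in such a window of 11.5% of 27025 genes and of 3 of 24 tested members that had one, Adamts2, Mmp15 and Timp2. The core of the AP-1 element, TGANTCA, occurred in 7.82% of genes and in 2 of the 24, Mmp13 and Adam19. None of the 5 higher members with a window held either motif.

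The fibrillin-associated ADAMTS, which act on microfibrils, did not move alike. Adamts6 was at 109, 63.8 and 61.0 CPM in libraries labelled Nrf2 KO and 30.0, 24.1 and 27.0 CPM in the controls (log2 fold change 1.53, SE 0.26, adjusted p = 0.0223). Adamts10 was at 122, 43.8 and 43.2 CPM against 91.1, 55.1 and 64.0 CPM, with overlapping groups and a log2 fold change of -0.01 (SE 0.46) that changed sign with the scaling. Without both libraries numbered 1 Adamts10 was called lower (-0.45, adjusted p = 0.00766, in a range of 0.00766 to 0.999; 46.1% of all genes called). The Adamts6 call was lost without Nrf2 KO replicate 2 or any 1 control (adjusted p up to 0.124). Of the remaining secreted members, Adamts17, an enzyme of connective tissue, fell, with 4, 6 and 9 counts against 21, 26 and 30 (-1.99, SE 0.38, adjusted p = 0.0287), a call lost without any 1 library other than Nrf2 KO replicate 1 (up to 0.161). Adamts13, which cuts von Willebrand factor, was at 0.310 ± 0.121 CPM against 0.358 ± 0.222 CPM (adjusted p = 0.859).

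Of 8 tested membrane sheddases 2 rose and 0 fell, with 1 more higher under the replicate block (Adam33). Adam12, which sheds growth factors and insulin-like growth factor binding proteins and is raised in activated mesenchyme, was at 69.0, 188 and 156 CPM in libraries labelled Nrf2 KO, against 15.5, 22.5 and 19.2 CPM in the controls. Its log2 fold change was 2.85 (SE 0.40, adjusted p = 0.0120), and Nrf2 KO replicate 1, the lowest of its group, was still above all controls. The call was lost without Nrf2 KO replicate 3 or any 1 control (adjusted p up to 0.0851). Adam17, the main sheddase of tumour necrosis factor and of several epidermal growth factor receptor ligands, was at 122, 122 and 107 CPM against 73.1, 80.1 and 71.6 CPM. This difference was small but steady between libraries (0.64, SE 0.14, adjusted p = 0.0400), and the call was lost with upper-quartile scaling, with library size alone, with no filter on low counts, and without any 1 library other than Nrf2 KO replicate 1 (adjusted p up to 0.246). Adam33, linked to airway remodelling in humans, was low throughout, with 56, 31 and 16 counts against 6, 5 and 7 (2.62, SE 0.68, adjusted p = 0.0696; 0.0408 with the block, in a range of 0.00634 to 0.234).

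Adam10, the sheddase that cuts Notch, differed more between replicate numbers than between groups. It was at 6.77, 60.7 and 50.1 CPM in libraries labelled Nrf2 KO and 18.2, 51.4 and 37.2 CPM in the controls (log2 fold change 0.14, SE 0.77, adjusted p = 0.942). Adam9 had the same form, at 26.7, 105 and 91.9 CPM against 55.4, 125 and 95.6 CPM (-0.30, SE 0.54). In both genes the libraries numbered 1 were the lowest of their group. Adam19, a sheddase of neuregulin, was at 68.8, 121 and 98.6 CPM against 65.9, 77.1 and 73.3 CPM and passed without Nrf2 KO replicate 1 (0.60, adjusted p = 0.0191; 0.328 with all 6 libraries, in a range of 0.00527 to 0.643). Adam8 and Adam15 had log2 fold changes of 0.26 and -0.23 and did not pass.

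Of the neural group, binding partners of LGI proteins without the zinc motif, 1 of 3 tested fell and none rose, all at low levels. The share called over all genes was 8.28%. Adam11 fell, at 0.287, 0.285 and 0.219 CPM against 0.970, 0.652 and 0.954 CPM (log2 fold change -1.69, SE 0.33, adjusted p = 0.0288), a call lost without any 1 library other than Nrf2 KO replicate 1 (up to 0.165). Adam23 was at 2.33, 2.53 and 2.24 CPM against 1.17, 1.48 and 1.47 CPM and Adam22 at 3.35, 1.47 and 0.899 CPM against 0.510, 0.607 and 0.696 CPM. Both lay above the controls in all 3 libraries, as did 17.1% of all genes, without passing (adjusted p = 0.102 and 0.119). Without Nrf2 KO replicate 1 Adam23 passed (adjusted p = 0.0391, in a range of 0.0265 to 0.332). Of 15 members known mainly from male germ cells, 10 had 0 counts and 4 were expressed, Adam1a, Adam4, Adam4l1 and Adam32. None of the 4 passed with all 6 libraries. Adam4 was at 9.99, 4.28 and 4.06 CPM against 4.62, 2.77 and 2.73 CPM, with overlap, and was called higher without both libraries numbered 1 (0.60, adjusted p = 0.0198, in a range of 0.0198 to 0.630). Adam32 was at 1.60, 0.143 and 0.219 CPM against 0.817, 0.675 and 0.928 CPM, and was lower without Nrf2 KO replicate 1 (log2 fold change -2.16, adjusted p = 0.00879; 0.860 with all 6 libraries, in a range of 0.00440 to 0.979 over 15 alternatives). The mouse genes Adam1a and Adam4 overlap other genes on the same strand, so their levels are uncertain.

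**Figure D4:**
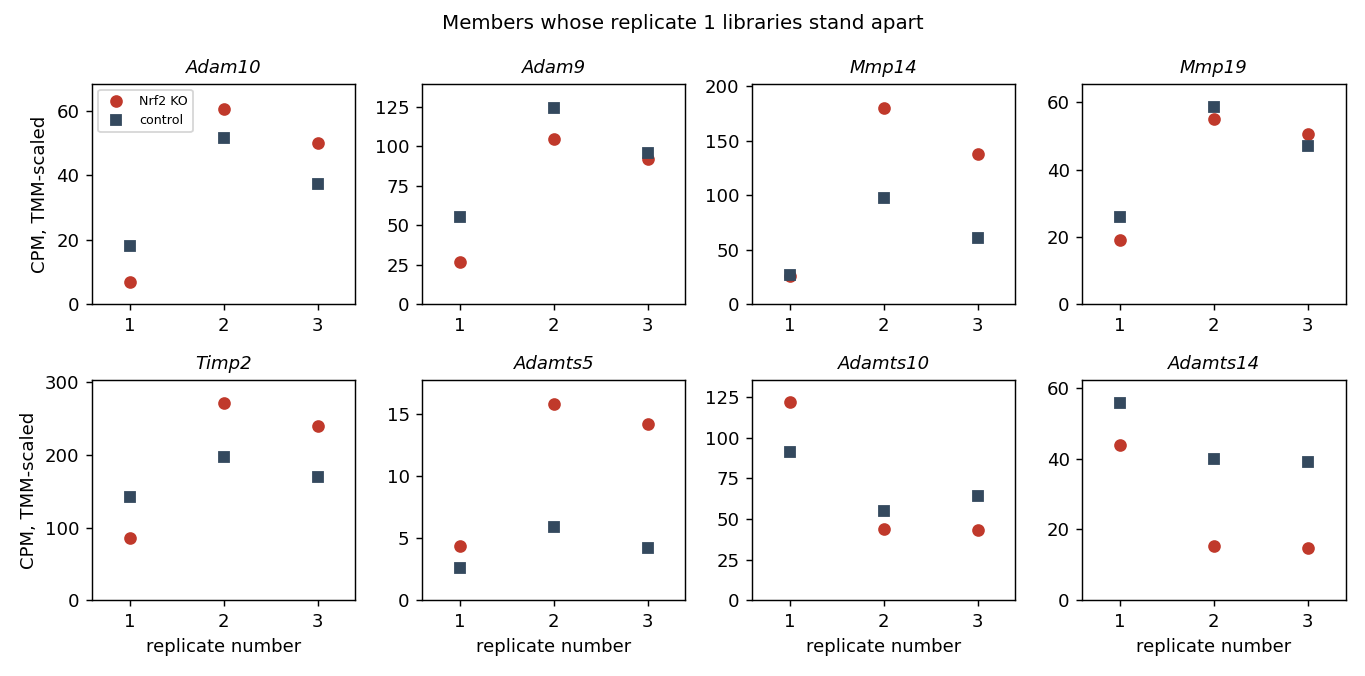
Level in CPM of 8 members, chosen after their values were seen, by replicate number in the Nrf2 KO (red) and control (dark) libraries. In 6 of them the libraries numbered 1 are the lowest of their group, and in Adamts10 and Adamts14 they are the highest.

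This split by replicate number touched many members. In 9 of 40 tested members (22.5%) Nrf2 KO replicate 1 was more than 2 times below the lower of replicates 2 and 3, beside 15.4% of all genes. In 8 of those 9 control replicate 1 was also the lowest control, as it was in 2008 of the 2250 such genes overall. In 11 members (27.5%) it was more than 2 times above the higher one, beside 14.4% of all genes. The labels do not say what the number stands for, and its part in these results was not tested.

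Of 10 tested MMP genes 1 was higher and 1 lower (20.0%, beside 8.28% of all genes called). Mmp9, a gelatinase that cuts basement membrane collagen, was at 1.18, 2.67 and 3.43 CPM in libraries labelled Nrf2 KO and 0.536, 0.382 and 0.464 CPM in the controls (log2 fold change 2.40, SE 0.46, adjusted p = 0.0289). The other gelatinase, Mmp2, an abundant product of fibroblasts, was low in both groups, at 1.40, 1.06 and 1.24 CPM against 0.255, 0.202 and 0.696 CPM (1.68, SE 0.51, adjusted p = 0.102; 0.0497 with the block, in a range of 0.0251 to 0.300). In both gelatinases every Nrf2 KO library lay above all controls, as in 17.1% of all genes. Mmp11, a furin-activated enzyme found in stroma, fell, at 2.04, 2.26 and 1.80 CPM against 6.56, 5.87 and 6.57 CPM (-1.64, SE 0.21, adjusted p = 0.00841). The Mmp9 call was lost without any 1 library other than Nrf2 KO replicate 1 (adjusted p up to 0.155), and that of Mmp11 without Nrf2 KO replicate 3 or any 1 control (up to 0.0752).

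The collagenase Mmp13 was the 1 expressed gene of a run of 10 neighbouring Mmp genes on mouse chromosome 9, of which the table holds 9. It was at 34.1, 36.6 and 39.4 CPM against 37.4, 34.1 and 35.6 CPM, the closest match between the groups of any well-expressed MMP (log2 fold change 0.04, SE 0.14, and -0.02 with upper-quartile scaling). The other 8 had at most 7 counts each in all 6 libraries.

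Among membrane-type MMPs, Mmp14, which activates pro-MMP2 and digests collagen at the cell surface, was at 25.9, 179.6 and 138 CPM in libraries labelled Nrf2 KO against 27.1, 97.0 and 61.1 CPM in the controls. The groups overlapped, with the libraries numbered 1 lowest in both (log2 fold change 0.89, SE 0.75, adjusted p = 0.536). Without both of those libraries Mmp14 was called higher (1.01, adjusted p = 0.00647, in a range of 0.00647 to 0.819), in a fit that called 46.1% of all genes. Between libraries of the same number its level was 0.953, 1.85 and 2.25 times that of the control. Mmp16 was at 39.4 ± 15.3 CPM against 49.0 ± 10.7 CPM (adjusted p = 0.643). Mmp24 was at 5.17, 3.50 and 4.54 CPM against 9.24, 6.12 and 6.78 CPM, lower in every library without passing (-0.74, SE 0.26, adjusted p = 0.140; 0.0396 with the block, in a range of 0.0158 to 0.379). Mmp15 was at 0.255, 0.305 and 0.462 CPM against 0.128, 0.157 and 0.155 CPM, above the controls in every library without passing (adjusted p = 0.115; 0.0483 without Nrf2 KO replicate 1, in a range of 0.0483 to 0.359). Mmp19 did not pass (log2 fold change -0.07). Mmp28 was at 4.88, 3.75 and 3.60 CPM against 5.87, 4.95 and 5.29 CPM, without overlap and without passing (-0.40, SE 0.22, adjusted p = 0.333). It was called lower without both libraries numbered 1 (-0.47, adjusted p = 0.0398, in a range of 0.0398 to 0.613).

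The inhibitors did not pass the test in either direction. Timp1, the most abundant member per transcript length, was at 129, 204 and 231 CPM in libraries labelled Nrf2 KO and 353, 246 and 301 CPM in the controls. The groups did not overlap, yet the spread within them was wide (log2 fold change -0.68, SE 0.27, adjusted p = 0.186, and between 0.0514 and 0.446 over 15 alternatives). Timp2, which also takes part in the activation of pro-MMP2 by Mmp14, was at 85.6, 272 and 239 CPM against 141, 197 and 169.6 CPM (0.23, SE 0.43, adjusted p = 0.803). Without Nrf2 KO replicate 1 Timp2 passed, at 0.59 (adjusted p = 0.0388, in a range of 0.00846 to 0.965 over 15 alternatives). Timp4 had 5, 2 and 6 counts against 0 in each control. Timp3, a matrix-bound inhibitor with a broad range that includes ADAMTS enzymes, had 0 counts in all 6 libraries. In the mouse Timp3 overlaps Syn3 on the opposite strand, and Timp1 overlaps Syn1.

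On a scale per length, the authors' deposited table of FPKM (fragments scaled by transcript length and library size, 1 value a group and no spread) puts the inhibitors first. Timp1 had 196 FPKM in Nrf2 KO and 319.8 FPKM in control, and Timp2 had 96.2 and 83.8 FPKM. Of the proteases Mmp14 had the highest FPKM in the Nrf2 KO group, at 37.5 against 20.8 in control, and Adamts1 came next at 32.6 against 8.26. In the control group Adam9 led the proteases, with 24.5 FPKM, against 19.4 in Nrf2 KO. Of the 39 expressed members 27 reached 1 FPKM in at least 1 group. Adam11, Adamts17, Adamts9, Adamts20, Adamts7 and Mmp9 were among the 12 that did not, so 6 of the 13 calls concern transcripts at low levels.

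**Figure D5:**
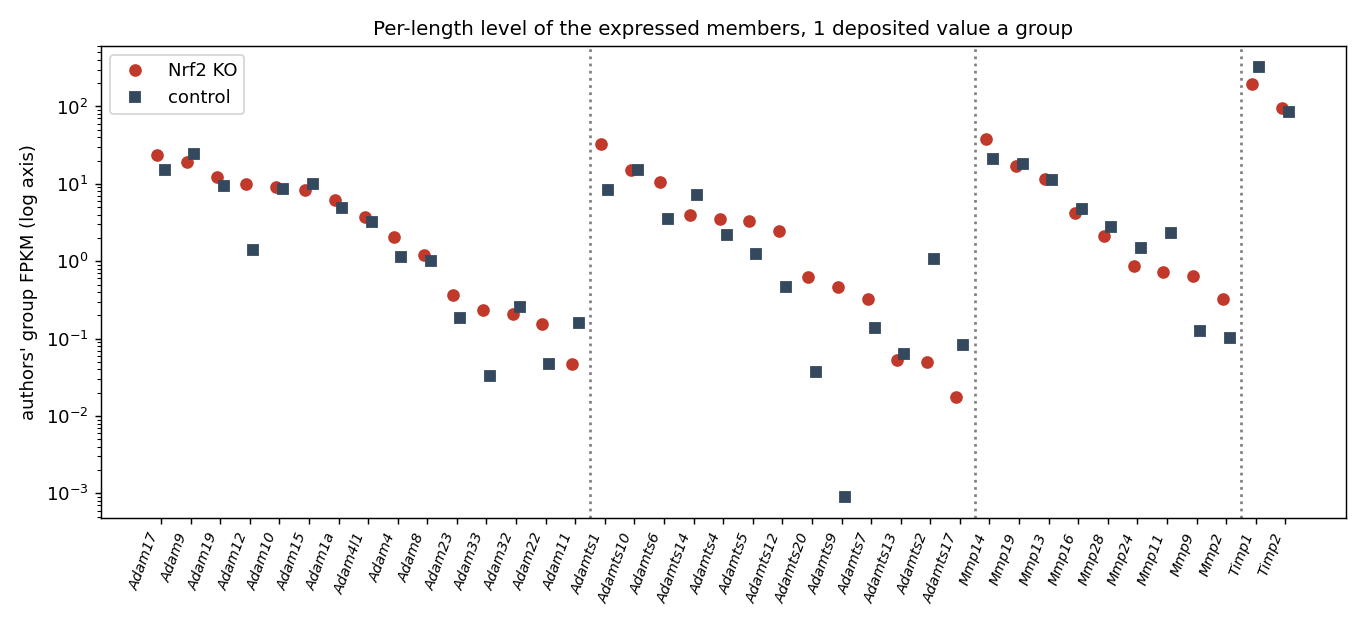
The authors' group FPKM (log axis) of the 39 expressed members in Nrf2 KO (red) and control (dark), by family and ordered within a family by the Nrf2 KO value, with 1 deposited value a group and no error. Timp1 and Timp2 lie above every protease in both groups, and Adamts9 and Adamts2 have the widest gaps.

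Genes around these enzymes were taken from 8 lists. Of 75 listed genes 46 were tested, and 8 rose and 1 fell, beside 8.28% of all genes called. The counts were 12 and 2 with the block (18.3% of all genes called) and 17 and 3 without Nrf2 KO replicate 1 (30.2%). The lists' median log2 fold change was 0.54, beside 0.04 over all genes, and 0.25 without Nrf2 KO replicate 1, beside -0.02. Among the genes that rose, Pcsk5, Tspan15, Pappa and Pappa2 had 0 to 3 counts in every control and could be tested only through the libraries labelled Nrf2 KO. Of 5 tested convertases, which remove the prodomains of ADAM and ADAMTS enzymes, Pcsk5 rose, with 30, 23 and 42 counts against 3, 0 and 2. Of 8 trafficking partners of ADAM10 and ADAM17, Tspan15, a tetraspanin that directs ADAM10 to some of its substrates, rose, with 146, 184 and 177 counts against 0, 0 and 3.

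Of 6 tested ligands released by shedding, Tgfa and Nrg1 rose (log2 fold changes 0.89, SE 0.18, and 0.70, SE 0.14; adjusted p = 0.0320 and 0.0328). Of 8 other matrix proteases Pappa and Pappa2, which cut insulin-like growth factor binding proteins, rose at few counts: 10, 17 and 15 against 0 in each control, and 16, 37 and 30 against 0, 0 and 3. Of 5 ADAMTS-like proteins, which lack a catalytic domain, Adamtsl3 rose (1.30, SE 0.21, adjusted p = 0.0171) and Adamtsl1 fell (-1.88, SE 0.42, adjusted p = 0.0463). Of 4 inhibitors other than TIMPs and clearance receptors, edgeR called 0, and Reck and Lrp1 were higher with the block (adjusted p = 0.0777 and 0.0928 without it). Of the 9 calls in these lists, that of Tspan15 alone held with each library left out in turn, and without any 1 library other than Nrf2 KO replicate 1 the lists had 1 or 2 higher and 0 lower calls.

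Markers of several cell types also differed between the groups. Of 8 tested fibroblast and mesenchyme markers 5 rose and 0 fell (62.5%, beside 8.28% of all genes called). In 5 of the 8 every Nrf2 KO library lay above all controls, and in 1 every one lay below. Each direction held in 17.1% of all genes. The summed level of the fibroblast list was 7508 to 10254 CPM in libraries labelled Nrf2 KO and 7543 to 8215 CPM in the controls. Of 4 tested supporting cell markers 2 rose and 0 fell, beside 8.28% of all genes called. Sox9, a transcription factor, had 1528, 1454 and 1293 counts against 384, 298 and 293. Fst, an activin antagonist, had 3892, 4709 and 4397 against 988, 998 and 1013. Of the 2 not called, 1 lay above all controls in every Nrf2 KO library. The other had overlapping groups and a negative log2 fold change. Without Nrf2 KO replicate 1 the former was called higher and the latter lower, in a fit that called 30.2% of all genes. The supporting cell list summed to 301 to 435 CPM against 182 to 221 CPM, with Sox2 and Tecta at 0 counts. The 1 expressed hair cell marker, Myo7a, an unconventional myosin, rose, with 939, 747 and 651 counts against 57, 48 and 55, and that list summed to 15.3 to 30.1 CPM against 1.17 to 1.51 CPM. Leukocyte markers were scarce, at 3.56 to 15.3 CPM against 7.42 to 10.2 CPM in sum, with Adgre1 at 0 counts, and of 2 tested Laptm5 fell, with 16, 16 and 23 counts against 145, 185 and 138. Endothelial markers were at 1.17 to 1.88 CPM against 0.970 to 1.80 CPM, with Kdr at 0 counts, and of 2 tested Erg rose, with 42, 31 and 24 counts against 0, 2 and 2. Erg could be tested only through the libraries labelled Nrf2 KO. The other tested endothelial marker went the opposite way, with every Nrf2 KO library under all controls. It did not pass in the main test, but was called lower in the block fit, and also once Nrf2 KO replicate 1 was left out. The Sox9 call was lost without control replicate 2 or 3 (adjusted p up to 0.0643), and the Erg call without any 1 library other than Nrf2 KO replicate 1 (up to 0.102). The part of these markers in the members' differences was not tested.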

How the data were processed

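Counts were deposited by the authors as whole numbers per gene symbol and library, with no normalisation. FPKM were deposited by the authors as 1 value per group. The submitters' processing notes list the build hg18, although the cells are mouse, and HISAT2, fastp, DESeq2 1.34.0 and FastQC, without roles. The counter, annotation and strand setting were not given in the sources used here. Of the 74 member symbols 68 are mouse symbols of GENCODE M21, and 11 further mouse symbols of these families are not rows of the table. Reads on near-identical copies or on overlapping genes can be misassigned. In the mouse, Adam17, Adamts4, Adamts7, Adamts9, Mmp11, Mmp19, Mmp24 and Mmp28 overlap a coding gene on the opposite strand, and Timp2 one on the same strand.

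The test was edgeR 4.0.16 (R 4.3.3) on these counts: filterByExpr by group (minimum count 10, total 15), TMM scaling, robust quasi-likelihood fit, group as the only term, two-sided, Benjamini-Hochberg over 14618 genes. All adjusted p-values are from it unless another tool is named. The code was tested on simulated data. Levels are TMM-scaled CPM, with mean ± SD of 3 libraries. Alternatives were other scalings and filters, limma-voom (limma 3.58.1), DESeq2 1.42.0, a replicate block and left-out libraries. The replicate numbers were taken as pairs from the counts and not from the labels. The reason was that deviations from the group mean correlated across genes between same-numbered libraries (0.754, 0.696 and 0.310 for numbers 1, 2 and 3, each above 0.1). Number 3 was not the closest pair for its Nrf2 KO library, which reached 0.539 against control 2. Nrf2 KO 2 against control 3 gave 0.278. Number 1 against the other numbers was negative throughout. The counts thus set number 1 apart, but separate numbers 2 and 3 poorly, and the block and same-number ratios rest on that pairing. No 2 libraries of a group agreed within sampling noise, and the labels do not say that replicates were separate cultures, so p-values cover only the spread among these samples, which may be technical. The members and gene lists were chosen with earlier results of these data known. All expressed members could be named. Of the lists, up to 3 called genes each were named, and others named were chosen after their values were seen. Intervals and depths cover counting error only. The result of 1 gene of these lists is not reported here.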

Additional observations from a re-analysis of the deposited data

How the results depend on the processing

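The counts of calls moved most with the libraries used. Over all genes 706 higher and 505 lower calls became 1420 and 1107 with DESeq2, 1520 and 1158 with the replicate block, and 3540 and 3253 without both libraries numbered 1. With 1 library left out in turn they ran from 139 to 2323 higher and from 57 to 2162 lower calls. For the members, 9 higher and 4 lower calls became 15 and 4 with DESeq2, 13 and 6 with the replicate block, and 18 and 9 without both libraries numbered 1. With 1 library left out they ran from 2 to 16 higher and from 0 to 7 lower. The pathway lists, with 8 higher and 1 lower, had 12 and 2 with the replicate block. With 1 library left out they ran from 1 to 17 higher and from 0 to 3 lower, where leaving out any library other than Nrf2 KO replicate 1 was an alternative chosen after seeing the data.

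Over the 13 member calls and their alternatives, 142 repeats passed and 53 did not, all in the same direction. With the replicate block, limma-voom, DESeq2 or DESeq2 size factors none of the 13 calls was lost, and with upper-quartile scaling, library size alone or no filter on low counts Adam17 and Adamts7 were lost. Members that changed sign had not passed. Adam10 was at -0.19 with limma-voom and -0.21 with the replicate block, Mmp13 at -0.021 with upper-quartile scaling, and Adamts10 at 0.00051 with DESeq2 size factors and 0.016 with library size alone. Without both libraries numbered 1, Adam1a was at -0.18, Adam4l1 at -0.089, Adam8 at -0.17, Adamts13 at 0.093 and Mmp19 at 0.0060. With 1 library left out the log2 fold change ran from -0.56 to 0.67 for Adam1a, from -0.23 to 0.44 for Adam4l1, from -0.39 to 0.52 for Adam8, from -0.32 to 0.63 for Adam10, from -0.52 to 0.046 for Adam15, from -0.63 to 0.10 for Adam9 and from -2.16 to 0.14 for Adam32. It ran from -0.69 to 0.24 for Adamts10, from -0.54 to 0.41 for Adamts13, from -0.015 to 0.085 for Mmp13, from -0.34 to 0.27 for Mmp19 and from -0.059 to 0.59 for Timp2. The cause was not tested. Depth limits the members with few counts, such as Adamts17, Adam33 and Adamts13.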
